A study of Saccharomyces cerevisiae with 6 samples.

Results

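The genes described here encode the proteasome of *Saccharomyces cerevisiae*. They comprise 36 genes of the 6256 on the array, chosen by name as the subunits of the proteasome, its assembly factor *UMP1*, the associated proteins *BLM10* and *ECM29*, and the transcription factor *RPN4*. The rule uses no measured value, although it was set with earlier results of these data known, and each of the 36 was found on the array through its systematic name. The samples came from a control strain, named YΔG/XK/XI in the study, and from a PHO13 deleted strain, named YΔGP/XK/XI. Both derive from the haploid host YPH499, a *MAT*a strain with auxotrophic *ura3*, *trp1*, *lys2*, *leu2*, *his3* and *ade2* alleles. They lack the aldose reductase gene *GRE3*, overexpress the xylulokinase gene *XKS1* from the *TDH3* promoter, and carry integrated copies of the xylose isomerase gene *xylA* of *Orpinomyces*. In YΔGP/XK/XI the phosphatase gene *PHO13* was also replaced by the marker *KanMX*. Cells had fermented 50 g/L xylose for 9 h under limited oxygen when RNA was taken, in 3 replicates per strain, each on 1 single-colour array. No second transformant of either strain was measured, so the strain and its single isolate cannot be told apart. The labels number the replicates as runs and give no separate precultures, so the p-values measure only the spread between these samples.

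The proteasome is the large protease that degrades proteins tagged with ubiquitin. Its core particle is a stack of alpha and beta rings, and the catalytic sites lie inside the beta rings. The regulatory particle caps the core. It has a base with a ring of ATPases that unfold the substrate and feed it into the core, and a lid that removes the ubiquitin chain. In yeast the genes of the subunits share a transcriptional activator, Rpn4, which is itself a short-lived substrate of the proteasome.

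As a check of the labels, *PHO13* was detected above background in all 3 YΔG/XK/XI replicates and in 0 of the 3 YΔGP/XK/XI replicates, and *GRE3* in 0 of 6. *XKS1*, overexpressed in both strains, was lower in YΔGP/XK/XI (log2 fold change -0.45, adjusted p = 0.0112, limma), and the part of this in the values below was not tested. The mating type genes *MFA1*, *MFA2*, *STE2* and *BAR1* of a cells were well above background on all 6 arrays, as was *STE3*, a gene of alpha cells, while *MF(ALPHA)1* and *MF(ALPHA)2* of alpha cells were so on 1 array each. The 75th percentile of the spot intensities, to which each array was scaled, ranged from 4631 to 7632 in YΔG/XK/XI and from 3782 to 7095 in YΔGP/XK/XI. Slide 1 carried replicates 1 and 2 of each strain, and slide 2 carried replicate 3 of each. The number of arrays limits the precision of every value below.

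Transcript levels of the proteasome genes differed little between the strains. In limma, 4 genes had an adjusted p under 0.05 and were called, each lower in YΔGP/XK/XI: the ATPase genes *RPT4*, *RPT3* and *RPT6* and the regulator *RPN4*. Their log2 fold changes were between -0.34 and -0.22, where a log2 fold change is the mean signal in YΔGP/XK/XI minus that in YΔG/XK/XI. None of the 36 was called higher by limma, and at an unadjusted p under 0.05 there were 8 lower genes and 1 higher gene, *ECM29*, when 42.1% of all genes passed that threshold. The 4 called genes are 11.1% of the 36, against 29.6% called among all genes of the array. In the lower direction alone the background was 13.1%, near the share of the members, and in the higher direction it was 16.5%.

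The small size of the differences was also seen without a threshold. No member differed by more than 2-fold, which 2.27% of all genes did. The widest differences, of 1.27-fold, were those of *RPT4* and *ECM29*. The 95% intervals of the log2 fold change lay between -0.50 and 0.67 for the 36 members, and 33 of them (91.7%) fell inside ±0.5, compared with 66.1% of all genes. The members were measured with slightly smaller errors, with a median standard error of 0.0786 against 0.0878 over all genes. The 36 probes were detected above background on each of the 6 arrays, and none had a saturated spot.

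Within this narrow range, more members lay below 0 than above it. The log2 fold change was negative in 28 of the 36 members, and in 48.6% of all genes. With median scaling it was negative in 31 members, but that scaling also moved the median of all genes, to -0.0509. The median was -0.13 over the members and 0.0092 over all genes. Signals of the strains had no overlap in 16 members (44.4%), and in 46.6% of all genes. Of the 36 members, 15 had no overlap and were lower in YΔGP/XK/XI, as were 21.5% of all genes. Only *RPN8* of the 36 had no overlap and was higher, as were 25% of all genes. With the slide as a block, 7 members were called lower and 0 higher. In that fit 36.8% of all genes were called, 16.4% lower and 20.4% higher.

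**Figure D1:**
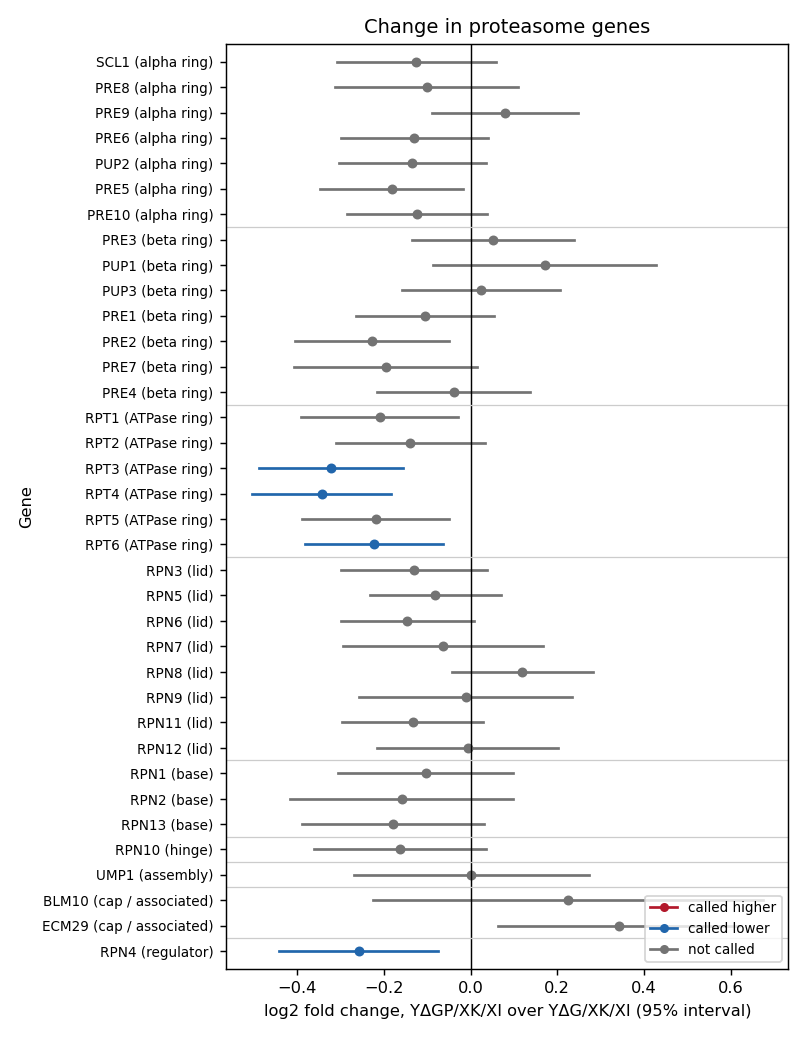
Log2 fold change of the 36 proteasome genes, YΔGP/XK/XI over YΔG/XK/XI, with its 95% interval from limma (n = 3 arrays per strain). Blue marks the 4 genes called lower (*RPT3*, *RPT4*, *RPT6* and *RPN4*), grey the genes not called, and no gene was called higher. Horizontal lines separate the parts of the proteasome.

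*RPN4* (YDL020C) encodes the zinc finger activator of the proteasome genes. Its normalized log2 signal was 2.49, 2.51 and 2.57 in YΔG/XK/XI and 2.38, 2.16 and 2.26 in YΔGP/XK/XI. All 3 arrays of YΔGP/XK/XI lay below the lowest of YΔG/XK/XI, and replicate 2 was the lowest. The means were 2.52 ± 0.04 and 2.27 ± 0.11 (SD, n = 3 each), which gave a log2 fold change of -0.26 (standard error, SE, 0.08, adjusted p = 0.0417, limma). The level thus fell by 16.4%. The difference was -0.23 within slide 1 and -0.31 within slide 2. When arrays were left out in turn, *RPN4* was called only without replicate 1 of YΔGP/XK/XI, and adjusted p ranged from 0.0376 to 0.102. Because RNA came from whole cultures, less *RPN4* RNA in each cell and fewer cells with a high level cannot be told apart, here and for the genes below.

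The 6 genes of the ATPase ring, *RPT1* to *RPT6*, were all lower in mean in YΔGP/XK/XI, and 3 of them were called. This is 50% of a list of 6 genes, against 13.1% of all genes called lower, and the arrays did not overlap in 5, against 21.5% of all genes in that direction. The median log2 fold change of the ring was -0.22, and the values ranged from -0.34 to -0.14. *RPT4* (YOR259C) had a normalized log2 signal of 0.26, 0.26 and 0.19 in YΔG/XK/XI and of -0.08, -0.06 and -0.17 in YΔGP/XK/XI. The gap between the strains was wider than the range within either of them. The decrease amounted to a log2 fold change of -0.34 (SE 0.07, adjusted p = 0.00809, limma), and *RPT4* was called under each of the 17 alternative settings.

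*RPT3* (YDR394W) had signals of 0.76, 0.81 and 0.91 in YΔG/XK/XI and of 0.53, 0.50 and 0.48 in YΔGP/XK/XI. The arrays of YΔGP/XK/XI lay close together and did not overlap with those of YΔG/XK/XI. For *RPT3* the log2 fold change was -0.32 (SE 0.07, adjusted p = 0.0120, limma), with -0.27 on slide 1 and -0.43 on slide 2. *RPT6* (YGL048C) had signals of -0.26, -0.32 and -0.23 in YΔG/XK/XI and of -0.44, -0.50 and -0.54 in YΔGP/XK/XI. These also did not overlap, and the log2 fold change was -0.22 (SE 0.07, adjusted p = 0.0430, limma). *RPT6* was near the threshold and lost its call whichever of the 6 arrays was left out (adjusted p from 0.0698 to 0.126).

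The other genes of the ring were not called. *RPT5* and *RPT1*, with log2 fold changes of -0.22 (adjusted p = 0.0571, limma) and -0.21 (adjusted p = 0.0798), had arrays that did not overlap between the strains. *RPT5* was called when slide was a block (adjusted p = 0.0401). *RPT2* (YDL007W), whose ATPase opens the gate of the core, gave the smallest difference of the ring. Its signals were 0.78, 0.81 and 0.67 in YΔG/XK/XI and 0.69, 0.58 and 0.57 in YΔGP/XK/XI, so that replicate 1 of YΔGP/XK/XI overlapped with replicate 3 of YΔG/XK/XI. For *RPT2* the log2 fold change was -0.14 with a 95% interval from -0.31 to 0.03 (adjusted p = 0.195). The 6 ATPases belong to a single protein family, each gene had 1 probe, and cross-hybridization between them was not tested.

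**Figure D2:**
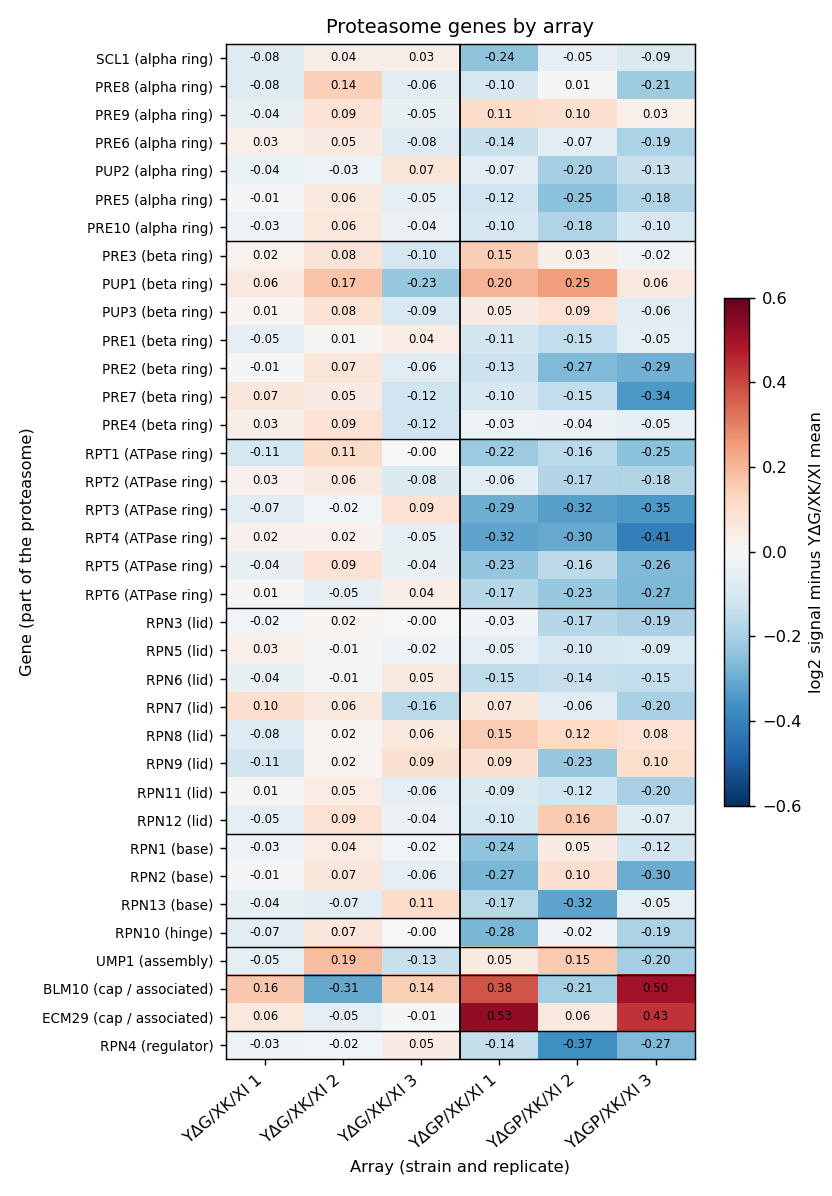
Normalized log2 signal of the 36 proteasome genes on each of the 6 arrays, minus the mean of the gene over the 3 arrays of YΔG/XK/XI. Rows are genes grouped by part of the proteasome, columns are arrays, and each cell prints its value. The *RPT* rows are blue on each YΔGP/XK/XI array, while *ECM29* and *BLM10* are deep red on its replicates 1 and 3, and pale red and blue on its replicate 2.

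The core particle has 14 genes, and 0 of them were called (limma), against 29.6% of all genes, 13.1% lower and 16.5% higher. At an unadjusted p under 0.05 there were 2, *PRE2* and *PRE5*, against 42.1% of all genes. The median log2 fold change was -0.11, with 10 genes below 0 and 4 above. In the alpha ring, whose subunits form the gate of the core, 6 of the 7 genes lay below 0 and the median was -0.12. The lowest of them, *PRE5* (YMR314W), had signals of 1.99, 2.05 and 1.95 in YΔG/XK/XI and of 1.88, 1.75 and 1.82 in YΔGP/XK/XI. Although these did not overlap, the log2 fold change of -0.18 did not pass (SE 0.07, adjusted p = 0.0920). *SCL1*, *PRE8*, *PRE6*, *PUP2* and *PRE10* had values between -0.13 and -0.10. The exception was *PRE9* (YGR135W), the only dispensable subunit of the core in yeast, with a log2 fold change of 0.08 (95% interval -0.09 to 0.25, adjusted p = 0.439).

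In the beta ring the values spread on both sides of 0, with 4 genes below and 3 above and a median of -0.04. With median scaling *PRE3* and *PUP3* were also below 0, at -0.0079 and -0.0364. The log2 fold changes of the 3 catalytic subunits lay on both sides of 0. None was called in the reported fit, and differences between these genes were not tested. *PRE2* (YPR103W), which carries the chymotrypsin-like site, had signals of 1.57, 1.66 and 1.52 in YΔG/XK/XI and of 1.45, 1.32 and 1.30 in YΔGP/XK/XI. All arrays of YΔGP/XK/XI were below those of YΔG/XK/XI. At -0.23, *PRE2* had the lowest log2 fold change of the core (SE 0.08), just outside the threshold (adjusted p = 0.0589, limma), and it was called when slide was a block (adjusted p = 0.0373).

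*PUP1* (YOR157C), which carries the trypsin-like site, had signals of 0.16, 0.27 and -0.13 in YΔG/XK/XI and of 0.30, 0.35 and 0.16 in YΔGP/XK/XI. Replicate 3, on slide 2, was the lowest of each strain. Its log2 fold change of 0.17 was the highest of the core (95% interval -0.09 to 0.43, adjusted p = 0.279), but without replicate 3 of YΔG/XK/XI it was 0.0562, just under the 0.0569 of *PRE9*. *PRE3* (YJL001W), which carries the caspase-like site, had signals of 0.94, 1.001 and 0.82 in YΔG/XK/XI and of 1.07, 0.96 and 0.90 in YΔGP/XK/XI. The strains overlapped, and the log2 fold change was 0.05 (95% interval -0.13 to 0.24, adjusted p = 0.659). Of the subunits without a catalytic site, *PRE7* had a log2 fold change of -0.20 (adjusted p = 0.143) and was called when slide was a block (adjusted p = 0.0413). The values of *PRE1*, *PRE4* and *PUP3* were -0.10, -0.04 and 0.02.

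In the lid, 0 of the 8 genes were called (limma), and 0 had an unadjusted p under 0.05. The median log2 fold change was -0.07, and 7 of the 8 genes lay below 0, against 48.6% of all genes. *RPN6* (YDL097C), which braces the lid against the core, had the lowest value. Its signals were 2.46, 2.49 and 2.56 in YΔG/XK/XI and 2.35, 2.37 and 2.35 in YΔGP/XK/XI. These did not overlap, and the log2 fold change was -0.15 (SE 0.07, adjusted p = 0.136). *RPN11*, the protease that cuts the ubiquitin chain from the substrate, had a log2 fold change of -0.13 (95% interval -0.30 to 0.03, adjusted p = 0.187).

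*RPN8* (YOR261C), the partner of *RPN11* in the lid, was the lid gene that lay on the other side of 0. Its signals were 0.68, 0.77 and 0.81 in YΔG/XK/XI and 0.91, 0.87 and 0.84 in YΔGP/XK/XI. The arrays did not overlap, but the log2 fold change of 0.12 was not called (SE 0.07, adjusted p = 0.235). *RPN8* lies close to *RPT4* in the R64 annotation, with 1 gene between them, and the log2 fold changes of these neighbours were 0.12 and -0.34. *RPN12* and *PRE4* are also separated by 1 gene, and their values were -0.0061 and -0.04. For the remaining genes of the lid, *RPN3*, *RPN5*, *RPN7* and *RPN9*, the values were -0.13, -0.08, -0.06 and -0.01. *SEM1*, which encodes a further small subunit of the lid, had a log2 fold change of -0.07 (adjusted p = 0.650).

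The base subunits outside the ATPase ring are scaffolds and ubiquitin receptors. *RPN1*, *RPN2* and *RPN13* had log2 fold changes of -0.10, -0.16 and -0.18, and the ubiquitin receptor *RPN10*, which sits between base and lid, of -0.16. None of these 4 was called by limma, none had an unadjusted p under 0.05, and the lowest adjusted p was 0.172. Over all genes, 29.6% were called and 42.1% had an unadjusted p under 0.05. *RPN2* (YIL075C) had signals of 1.59, 1.67 and 1.54 in YΔG/XK/XI and of 1.32, 1.69 and 1.30 in YΔGP/XK/XI. Replicate 2 of YΔGP/XK/XI was the highest of the 6 arrays, and the other replicates of the strain were the lowest. Without this replicate the log2 fold change of *RPN2* was -0.29 (adjusted p = 0.0331, limma). *RPN13* (YLR421C), with signals of 0.68, 0.65 and 0.83 in YΔG/XK/XI and of 0.55, 0.40 and 0.67 in YΔGP/XK/XI, had the lowest value of the base. *RPN1* (YHR027C) had the value nearest to 0, with signals of 1.15, 1.22 and 1.16 in YΔG/XK/XI and of 0.93, 1.22 and 1.06 in YΔGP/XK/XI. In both genes the strains overlapped.

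*UMP1* (YBR173C), the chaperone that is enclosed and degraded as the core matures, had signals of 0.12, 0.36 and 0.04 in YΔG/XK/XI and of 0.23, 0.33 and -0.03 in YΔGP/XK/XI. The replicates of a strain differed far more than the strains, and the log2 fold change was 0.0017 (95% interval -0.27 to 0.27, adjusted p = 0.993). *ECM29* (YHL030W), which tethers the regulatory particle to the core, had the highest log2 fold change of the 36 members. Its signals were -1.29, -1.41 and -1.37 in YΔG/XK/XI and -0.83, -1.30 and -0.92 in YΔGP/XK/XI. Replicates 1 and 3 of YΔGP/XK/XI were above every array of YΔG/XK/XI, and replicate 2 was at their level. The log2 fold change of 0.34 (SE 0.12) did not pass (adjusted p = 0.0653, limma), and without replicate 2 of YΔGP/XK/XI it was 0.48 (adjusted p = 0.00489).

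*BLM10* (YFL007W), an alternative cap of the core, showed the same low replicate 2. Its signals were -2.83, -3.29 and -2.84 in YΔG/XK/XI and -2.61, -3.19 and -2.48 in YΔGP/XK/XI, so replicate 2 was the lowest in each strain. The log2 fold change was 0.23 with a 95% interval from -0.22 to 0.67 (adjusted p = 0.413). It was 0.44 without replicate 2 of YΔGP/XK/XI and 0.0722 without replicate 2 of YΔG/XK/XI, the extremes of the 6 fits that lacked an array, and was called in 0 of them. Replicate 2 of YΔGP/XK/XI was also the array with the fewest probes well above background, 94.3% against 95.6 to 97.0% on the others. The part of this in the values of *RPN2*, *ECM29* and *BLM10* was not tested.

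The core particle, the ATPase ring and the lid were then set side by side on each array, with each gene expressed relative to its mean in YΔG/XK/XI. On the 3 arrays of YΔGP/XK/XI, the mean over the ATPase genes was -0.22, -0.23 and -0.29. The corresponding means were -0.04, -0.06 and -0.12 for the core particle, and -0.01, -0.07 and -0.09 for the lid. On the arrays of YΔG/XK/XI the means stayed between -0.06 and 0.07 for the core, between -0.03 and 0.04 for the ATPase ring, and between -0.02 and 0.03 for the lid. For the ATPase ring the arrays of the strains were thus well apart, whereas for the core the nearest arrays overlapped. For the lid they overlapped narrowly by the mean (-0.0135 in YΔGP/XK/XI and -0.0191 in YΔG/XK/XI) and not by the median over its genes (-0.0403 and -0.0291).

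Counted by gene, 5 of the 6 ATPase genes on replicate 1 of YΔGP/XK/XI, and 6 on replicates 2 and 3, lay below the lowest array of YΔG/XK/XI. For the core particle this count was 8, 6 and 9 of 14 genes, and for the lid 5, 5 and 6 of 8. The count was not made over all genes, so it has no background to be read against. The median log2 fold change was -0.20 for the ATPase ring within slide 1 and -0.28 within slide 2. For the core it was -0.10 on both slides, and for the lid -0.08 and -0.05. The order of the 3 medians, with the ATPase ring lowest and the lid nearest to 0, was kept with normexp, quantile and median scaling. The core and the lid changed places without replicate 3 of YΔG/XK/XI (core -0.1028, lid -0.1062) and without replicate 1 of YΔGP/XK/XI (core -0.1022, lid -0.1127). Genes of a complex are not independent replicates, and the differences between the groups are given without a test.

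**Figure D3:**
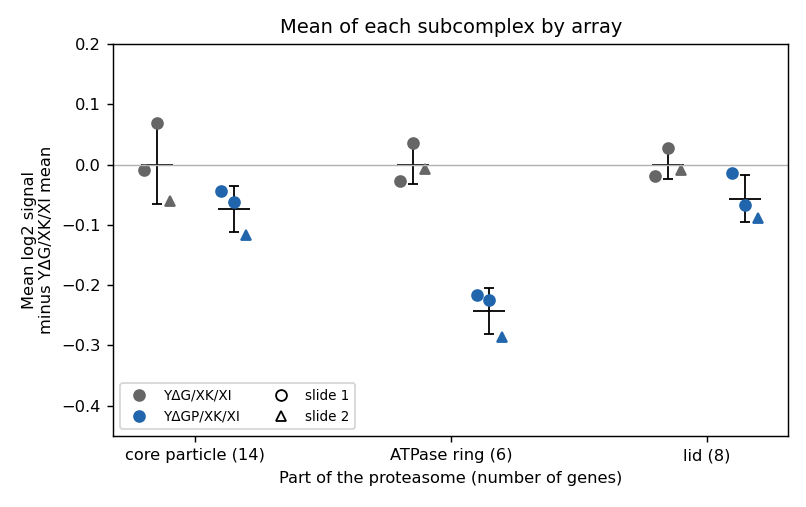
Mean normalized log2 signal over the genes of the core particle, the ATPase ring and the lid, relative to the mean of each gene in YΔG/XK/XI. Points are arrays (circles slide 1, triangles slide 2), horizontal marks the mean and bars the SD over 3 arrays. The ATPase ring of YΔGP/XK/XI lies between -0.29 and -0.22, below the other groups of points.

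A further 12 genes encode factors that assemble or accompany the proteasome. Of these, 2 were called higher and 1 was called lower, which is 25% of the list against 29.6% of all genes, and the median log2 fold change was -0.02. *POC4* (YPL144W) and *IRC25* (YLR021W) encode the partners of a chaperone dimer for the alpha ring. *POC4* had signals of -3.08, -2.97 and -3.21 in YΔG/XK/XI and of -2.53, -2.38 and -2.76 in YΔGP/XK/XI. The arrays did not overlap, and *POC4* rose by a log2 fold change of 0.53 (SE 0.11, adjusted p = 0.00917, limma), a larger difference than that of any of the 36 members. *IRC25* rose by 0.26 (adjusted p = 0.0333), but lost its call whichever of the 6 arrays was left out (adjusted p from 0.0512 to 0.0834). It also lost its call with quantile normalization (0.0825), with median scaling (0.0723) and on slide 1 alone (0.0869).

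*RPN14* (YGL004C), a chaperone of the base that binds the ATPase Rpt6, fell. Its signals were -0.74, -0.86 and -0.63 in YΔG/XK/XI and -1.15, -1.27 and -1.17 in YΔGP/XK/XI. These were well separated, with a log2 fold change of -0.45 (SE 0.08, adjusted p = 0.00512, limma). Both *POC4* and *RPN14* were called under each of the 17 alternatives. The other chaperones of the base, *NAS6*, *NAS2* and *HSM3*, were not called, with log2 fold changes of 0.20, -0.21 and -0.12 and adjusted p of 0.0747, 0.117 and 0.365 (limma).

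The genes that act on *RPN4* and on its product were examined next. *HSF1*, *YAP1*, *PDR1* and *PDR3* encode transcription factors of the heat shock, oxidative stress and drug responses that bind the *RPN4* promoter. None of the 4 was called by limma and none had an unadjusted p under 0.05, against 29.6% and 42.1% of all genes. Their log2 fold changes were -0.08, 0.11, -0.03 and 0.09, and the 95% intervals lay between -0.29 and 0.28. Rpn4 is marked for degradation by the ubiquitin ligase Ubr2 with Mub1 and the conjugating enzyme Rad6. *UBR2*, *MUB1* and *RAD6* were not called either, with log2 fold changes of 0.18, 0.25 and -0.38 and adjusted p of 0.195, 0.149 and 0.105 (limma). When slide was a block, *MUB1* was called higher (adjusted p = 0.0274) and *RAD6* lower (adjusted p = 0.0424). In that fit 20.4% of all genes were called higher and 16.4% lower.

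Ubiquitin itself is encoded by 4 genes in yeast. Of these, 3 are fusions with a ribosomal protein, and they rose in YΔGP/XK/XI by nearly the same amount, between 1.80-fold and 1.81-fold. *RPS31* (YLR167W) had signals of 2.24, 2.57 and 2.40 in YΔG/XK/XI and of 3.35, 3.23 and 3.19 in YΔGP/XK/XI. *RPL40A* (YIL148W) had signals of 0.64, 0.86 and 0.60 in YΔG/XK/XI and of 1.55, 1.69 and 1.40 in YΔGP/XK/XI. In *RPL40B* (YKR094C) the signals were -0.28, -0.03 and -0.37 in YΔG/XK/XI and 0.66, 0.60 and 0.64 in YΔGP/XK/XI. In each of the 3 genes every array of YΔGP/XK/XI was above every array of YΔG/XK/XI, with log2 fold changes of 0.86, 0.84 and 0.86 (adjusted p = 4.79e-04, 7.48e-04 and 4.68e-04, limma).

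The fourth gene, *UBI4* (YLL039C), encodes polyubiquitin and is known for its induction by stress. Its signals were 3.17, 3.30 and 3.30 in YΔG/XK/XI and 3.11, 3.12 and 2.97 in YΔGP/XK/XI. They lay on the other side, without overlap, and the log2 fold change of -0.20 was not called (SE 0.08, adjusted p = 0.0956, limma). With median scaling *UBI4* was called lower (log2 fold change -0.26, adjusted p = 0.0406). *RPL40A* and *RPL40B* encode the same protein, and all 4 genes contain ubiquitin sequence, so that cross-hybridization may reach several probes. It was not tested.

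Genes for the transfer of ubiquitin changed rarely. Of the 17 genes for activation, conjugation and ligation, 1 was called higher and 0 lower, which is 5.88% of the list against 29.6% of all genes, and the median log2 fold change was -0.02. The called gene was *SSM4* (YIL030C), which encodes the ubiquitin ligase Doa10 of the endoplasmic reticulum. Its signals were -0.69, -0.60 and -0.73 in YΔG/XK/XI and -0.39, -0.41 and -0.29 in YΔGP/XK/XI. *SSM4* rose by a log2 fold change of 0.31 (SE 0.075, adjusted p = 0.0160, limma). It lost its call without replicate 1 of YΔG/XK/XI (0.0634) or replicate 3 of YΔGP/XK/XI (0.0559), and on slide 1 alone (0.0914).

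Among the 12 genes that extract, shuttle or trim ubiquitin chains, 2 were called lower and 0 higher, and the median log2 fold change was -0.15. The share called lower was 16.7%, near the 13.1% of all genes. *UBX2* (YML013W), which recruits the segregase Cdc48 to membranes, had a log2 fold change of -0.29 (SE 0.07, adjusted p = 0.0166, limma), and lost its call without replicate 1 of YΔG/XK/XI (0.0753) and on slide 1 alone (0.0537). *RAD23* (YEL037C), a shuttle that carries ubiquitinated proteins to the proteasome, had signals of 1.43, 1.46 and 1.29 in YΔG/XK/XI and of 1.15, 1.11 and 1.19 in YΔGP/XK/XI. These did not overlap, and the log2 fold change was -0.25 (SE 0.08, adjusted p = 0.0412). Of the 6 fits that lacked an array, *RAD23* was called only in that without replicate 3 of YΔG/XK/XI, with adjusted p between 0.0234 and 0.135 over the 6.

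**Figure D4:**
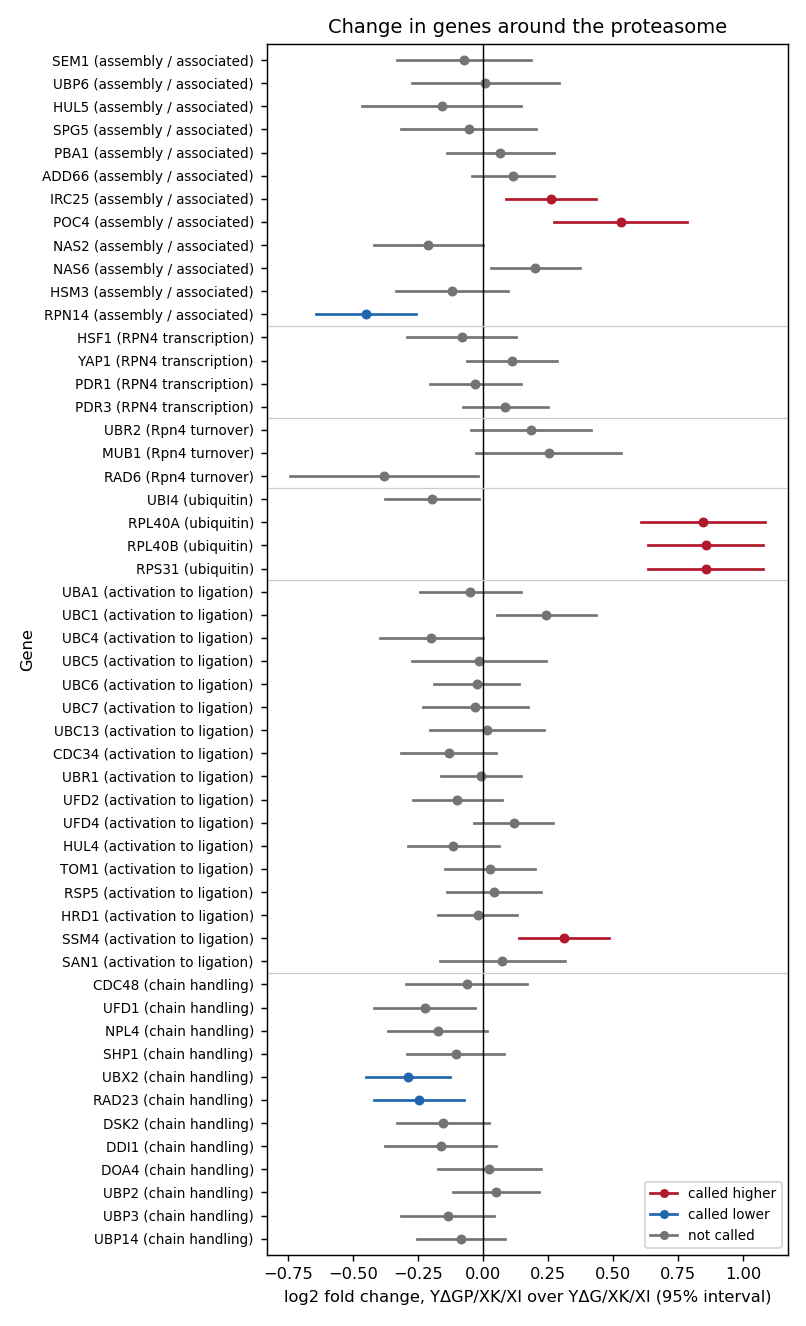
Log2 fold change of 52 genes around the proteasome, YΔGP/XK/XI over YΔG/XK/XI, with its 95% interval from limma (n = 3 arrays per strain). Red marks genes called higher, blue genes called lower and grey genes not called. The ubiquitin fusion genes *RPL40A*, *RPL40B* and *RPS31* lie between 0.84 and 0.86, above the other genes shown.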

How the data were processed

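Cy3-labelled RNA was hybridized to single-colour Agilent yeast arrays, 1 for each of 3 replicates per strain. The deposited array files hold a background-subtracted intensity per spot from Agilent Feature Extraction 10.1.1.1, with no scaling between arrays by the authors. A deposited log2 table, also from the authors, matched the same intensities after a 75th percentile shift and a per-probe median centring (r of 0.99993 or above).

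Each of the 6256 genes had 1 probe in 7 spots. After removal of outlier spots, log2 intensities were averaged per gene and set relative to the 75th percentile of their array. Detection above background required the software's mark on at least 4 spots. Symbols came from the R64 assembly for the 5756 systematic names listed there. The build behind the probe design is not given in the sources used here. No sequences were used, and R64 coordinates served only to order the genes along each chromosome.

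YΔGP/XK/XI was tested against YΔG/XK/XI over all genes with lmFit and eBayes (limma 3.58.1, R 4.3.3), Benjamini-Hochberg adjustment and a threshold of 0.05. The 17 alternatives changed the background correction (normexp, offset 50, on median intensities), the scaling (quantile, median), the spot summary (medians, all spots), the filter on dim probes, the variance trend, the block (slide, replicate), the input (deposited log2 table) or the arrays (each left out, slide 1 alone). The last was chosen after the data were seen.

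The members and lists were chosen with earlier results of these data known. Signals per array are given for *RPN4*, the catalytic subunits, *UMP1*, *BLM10*, *ECM29*, the highest and lowest gene of each part. Of the companion lists, the 3 called genes of largest change per direction were named. *PRE5*, *RPN2*, *SEM1*, *UBI4*, the base chaperones and the genes acting on *RPN4* were added after their values were seen, as were the other called members. The fit was tested on simulated data.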

Additional observations from a re-analysis of the deposited data

How the results depend on the processing

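Over all genes, 1852 were called, and between 1178 (without replicate 1 of YΔG/XK/XI) and 1661 when an array was left out. Of the calls 55.8% were higher, and 42.4% with median scaling, which moved the median of all genes from 0.0092 to -0.05. The 4 members called lower became 8 with median scaling, 7 with the slide as a block, 2 to 3 with an array left out, and 1, *RPT4*, with slide 1 alone. The number called lower over all genes also moved, from 819 to 1137 with median scaling and 1026 with the slide as a block. It was 487 to 698 with an array left out and 520 with slide 1 alone. The fits that gave 2 lacked replicate 1, 2 or 3 of YΔG/XK/XI or replicate 3 of YΔGP/XK/XI. The members called higher, 0 in the reported fit, were 1 (*ECM29*) with an intensity trend, and 0 to 1 with an array left out. Median scaling moved the median log2 fold change to -0.17 for the core particle, -0.28 for the ATPase ring and -0.13 for the lid. With an array left out, these medians ranged from -0.13 to -0.10, from -0.25 to -0.20 and from -0.11 to -0.0603. *RPT3* was called in 16 of 17 alternatives, *RPN4* in 11 and *RPT6* in 10. Some values near 0 changed sign. *PRE3* was -0.0079 and *PUP3* -0.0364 with median scaling, *UMP1* was -0.012, -0.0096 and -0.0584 with normexp, quantile and median scaling, and *RPN12* was 0.0088 with slide 1 alone. With an array left out the ranges were -0.0231 to 0.0678 for *PUP3*, -0.10 to 0.0046 for *PRE4*, -0.14 to 0.0023 for *RPN7*, -0.0681 to 0.0979 for *RPN9*, -0.0876 to 0.0429 for *RPN12*, -0.0748 to 0.10 for *UMP1*, -0.16 to 0.0081 for *SEM1* and -0.0602 to 0.0134 for *PDR1*. The causes were not tested.

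The labels do not say whether the shared replicate numbers pair the samples. Deviations of same-numbered arrays from their strain means correlated at 0.07, 0.30 and 0.42 across genes. For replicates 2 and 3 of YΔGP/XK/XI the same-numbered array of YΔG/XK/XI was the best match. Replicate 1 of YΔGP/XK/XI correlated best with replicate 2 of YΔG/XK/XI (0.13). Replicate 3 was also the only array of each strain on slide 2. With the replicate block 2362 genes were called, 1067 lower and 1295 higher, with 8 members lower and 1 higher.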
